A study of Homo sapiens with 2 samples.

Results

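The 10 genes of the human alpha and beta globin loci were set against the LDB1 peaks of NB4 cells. They were 5 alpha-like genes on chromosome 16 (HBZ, HBM, HBA2, HBA1 and HBQ1) and 5 beta-like genes on chromosome 11 (HBE1, HBG2, HBG1, HBD and HBB), out of 19821 genes that code for protein outside chromosome Y. They were chosen by name, with earlier results of these data known. The peaks taken with them were those with a midpoint in or within 10 kb of a member, and those within 60 kb of a locus, which runs from the first to the last base of its members. Of 52765 peaks on these chromosomes (53742 on all contigs), 30 met this rule: 29 at the alpha locus and 1 at the beta locus.

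The study used CUT&Tag, in which an antibody brings the Tn5 transposase to chromatin where it cuts the nearby DNA and adds sequencing adapters to it. There were 2 libraries, both of NB4, a human cell line from acute promyelocytic leukaemia with the PML::RARA fusion, grown without treatment. The antibody was against LDB1 in the first and a non-specific IgG in the second, and only the LDB1 peak list was analysed here. With 1 library and no height, score or read total per peak, nothing could be compared between replicates, the depth is unknown, and peak width in bp stands in for strength. RNA was not measured, so neither the cell line's identity nor transcription of the globin genes could be checked.

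Haemoglobin is built from alpha-like and beta-like chains, and each family's genes lie in a row with the embryonic gene first. Distant enhancers drive both: the locus control region (LCR) beyond HBE1 for the beta-like genes, and elements in the introns of the neighbouring gene NPRL3, HS-40 among them, for the alpha-like genes. LDB1 is a dimerising adaptor that joins LMO2, TAL1 and GATA1 bound at such elements, and in red cell precursors it holds the LCR to the active beta-like globin promoter. NB4 cells are of the granulocytic lineage, in which globin genes are normally silent.

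All 5 alpha-like genes lay under or beside LDB1 peaks, and none of the 5 beta-like genes had a peak in or within 10 kb. Among all protein-coding genes, 70.3% had such a peak (exact 95% interval 69.6 to 70.9%). Globin genes are short, and among the 1212 protein-coding genes of at most 2 kb the share was 47.4%. A peak midpoint within 1 kb of a gene end was found at all 5 alpha-like and at no beta-like gene, against 37.8% of all protein-coding genes and 29.9% of the short ones. The intervals cover counting error only.

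**Figure D1:**
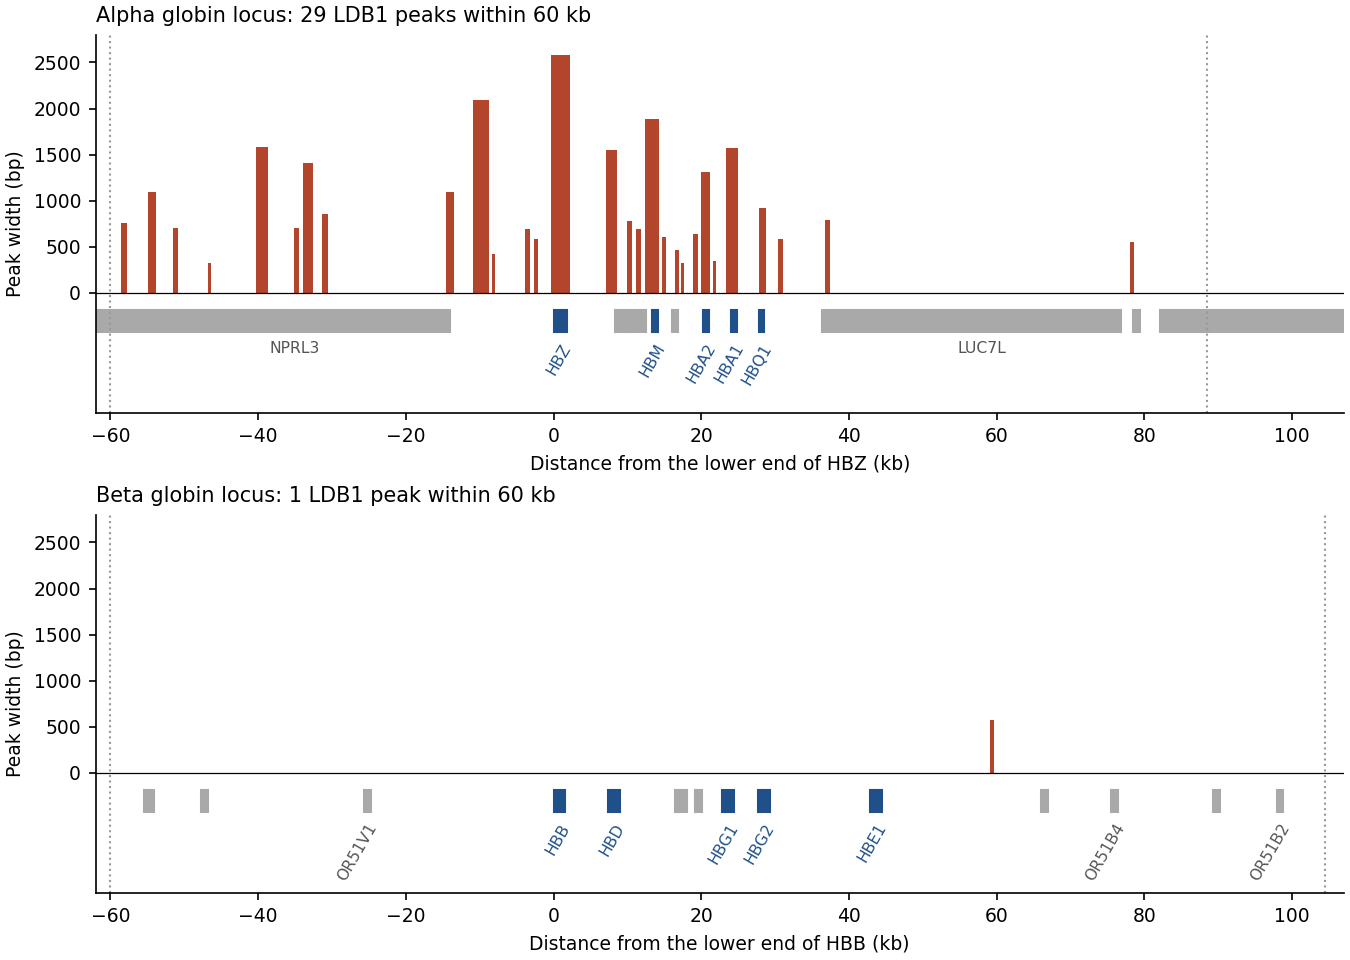
LDB1 peaks at the alpha globin locus (upper) and the beta globin locus (lower) on the same scale. The x axis is the distance in kb from the lower end of HBZ or HBB, each red bar spans a peak and its height is the peak's width in bp, blue boxes are the member genes, grey boxes are other genes, and dotted lines mark 60 kb from the locus. The alpha window holds 29 peaks and the beta window holds 1, beyond HBE1.

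The sequences before HBM and HBD show a promoter under a peak and a promoter without a peak. RefSeq promoters (GRCh38.p14, the build of the peaks) matched 2 of the 10 members, 1 in each locus. The 250 bases before the gene start are given 5′ to 3′ on the strand of the gene. Capitals mark GATAA (the core bound by GATA factors), CACCC (bound by KLF factors) and TATAA (the TATA box), on either strand, so that TTATC and GGGTG are GATAA and CACCC read from the other strand.
HBM: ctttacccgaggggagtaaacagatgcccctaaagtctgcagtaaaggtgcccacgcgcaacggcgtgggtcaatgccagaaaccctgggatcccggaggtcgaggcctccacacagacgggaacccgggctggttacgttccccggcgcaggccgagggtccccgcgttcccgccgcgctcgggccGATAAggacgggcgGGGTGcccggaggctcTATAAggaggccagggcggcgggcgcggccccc
HBD: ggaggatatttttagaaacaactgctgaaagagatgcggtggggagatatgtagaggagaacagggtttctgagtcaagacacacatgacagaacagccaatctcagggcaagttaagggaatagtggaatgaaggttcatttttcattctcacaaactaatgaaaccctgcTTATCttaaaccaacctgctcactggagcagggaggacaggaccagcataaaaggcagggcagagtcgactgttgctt

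The HBM stretch is chr16:165728-165977 on the plus strand, and 100% of it lay under a peak. The HBD stretch is chr11:5234484-5234733 on the minus strand, and it touched no peak. HBM holds GATAA at 63 to 59 bases before the start, CACCC at 49 to 45 and TATAA at 33 to 29, while HBD holds GATAA at 78 to 74. The E-box CANNTG, bound by TAL1 with its partners, was found 1 time before HBM and 2 times before HBD, CCAAT was found only before HBD, and no match overlapped another. Of 34959 RefSeq promoters of this length, 20.4% hold GATAA, 54.8% CACCC, 18.9% TATAA, 61.8% CANNTG and 32% CCAAT on either strand. Both globin promoters thus hold CANNTG and also GATAA, a motif present in a minority of promoters. GATAA was less frequent in promoters that a peak overlapped (11.4%) than in the others (22.6%). A match is a run of letters and not a measured site.

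Each alpha-like gene lay under a different listed peak, which covered the gene or nearly all of it. HBZ, which encodes the embryonic zeta chain (chr16:152644-154503), lay wholly inside the widest peak of the locus, chr16:152272-154850, of 2579 bp. That peak began 372 bp below the gene and ended 347 bp above it, and 1.23% of all peaks were as wide. HBM, which encodes the mu chain (chr16:165978-166764), lay wholly inside a peak of 1884 bp, chr16:165033-166916, a width reached by 3.25% of peaks. The HBM peak reached 945 bp below the gene start and 152 bp beyond its end, so most of its excess lay on the promoter side and its midpoint fell just outside the gene. On that side the peak also overlapped the upper end of the pseudogene HBZP1.

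The adult alpha chain genes were also wholly covered. HBA2 (chr16:172876-173710) lay inside a peak of 1309 bp, chr16:172570-173878. HBA1 (chr16:176680-177522) lay inside a peak of 1568 bp, chr16:176011-177578. Peaks as wide made up 8.65% and 5.41% of all peaks. The peak of HBA2 began 306 bp below its gene and that of HBA1 began 669 bp below. These genes encode the same protein and are near-identical copies whose starts lie 3804 bp apart, so reads may have been split or placed at random between them and the peaks of the pair are uncertain as separate peaks. The sources do not say how such reads were handled.

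HBQ1, which encodes the theta chain (chr16:180459-181179), was 92.1% covered by a peak of 919 bp, chr16:180516-181434, the narrowest of the 5. The peak began 57 bp inside the lower end of the gene and ran 255 bp past its upper end. The peaks of the other alpha-like genes overhung both ends. Coverage of at least 90% of the gene was found for 0.257% of all protein-coding genes and for 41 of the 1212 of at most 2 kb (3.38%), of which 5 are these genes and 36 are others.

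**Figure D2:**
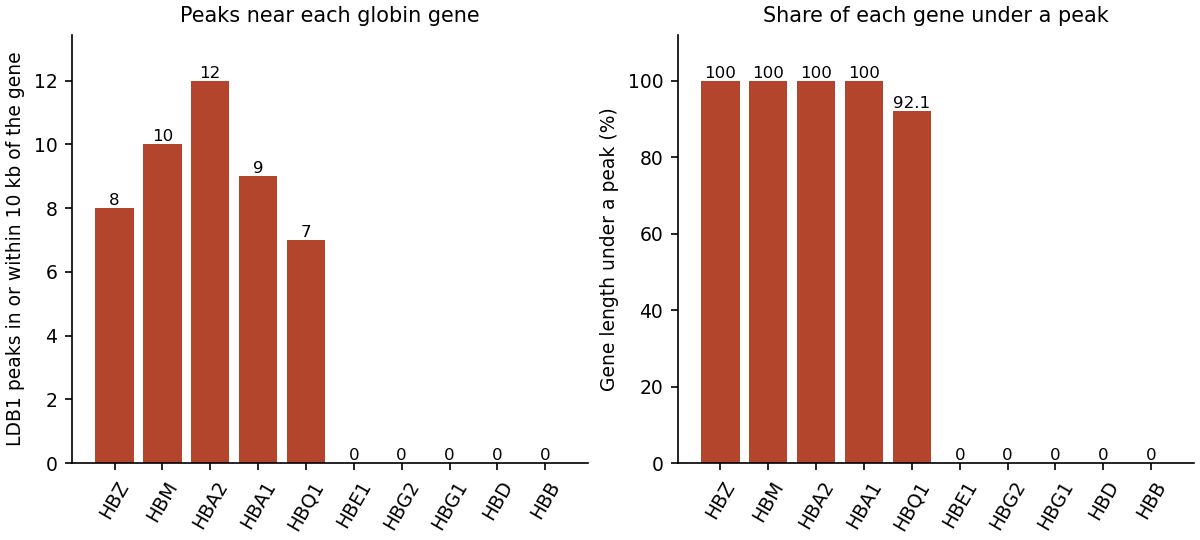
Number of LDB1 peaks in or within 10 kb of each globin gene (left) and share of the gene's length under a peak in percent (right). Bars are single values from 1 library. The alpha-like genes have 7 to 12 peaks and 92.1 to 100% coverage, and the beta-like genes have 0 in both.

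Counted within 10 kb, HBA2 had 12 peaks, HBM 10, HBA1 9, HBZ 8 and HBQ1 7. The genes share these peaks: 19 distinct peaks made up all 5 counts. As many peaks as at HBA2 were found at 2.93% of protein-coding genes, and as many as at HBQ1 at 9.57%. HBA2, in the middle of the row, had the most, and HBZ and HBQ1 at its ends had the fewest. The median was 9 peaks in the alpha-like genes and 1 in all protein-coding genes.

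Across the alpha locus, from HBZ to HBQ1 (28.5 kb), there were 13 peaks and 45.8% of the sequence lay under them. The 5 peaks that touch a member had a median width of 1568 bp (919 to 2579 bp). The 8 that touch none had a median of 625 bp (329 to 1553 bp), and the widest of these, chr16:159751-161303, reached into the non-coding gene LOC107983982. A wider peak is more likely to touch a gene, so this grouping itself favours wider peaks among those that touch a member. The pseudogenes of the row were partly covered: HBZP1, a zeta copy, for 53.2% of its length and HBAP1, an alpha copy, for 41.7%. The 11 peaks counted within 10 kb of each pseudogene overlap with those of the genes. Gaps between neighbouring peaks of the locus had a median of 0.85 kb (336 to 4900 bp), where the median over all 52742 gaps was 9.56 kb. MACS2 can list a broad enriched stretch as several neighbouring peaks, so the 13 peaks need not be 13 separate sites.

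Toward the alpha enhancers, NPRL3 held 13 peaks, 9 of them within 60 kb of the locus. Its density was 24.4 peaks per 100 kb, against 16.7 per 100 kb in the first 1 Mb of chromosome 16, which includes it. NPRL3 encodes a subunit of the GATOR1 complex that restrains mTORC1, and the RefSeq table lists HS-40 among its synonyms. Its gene body (chr16:85386-138673) was 22.1% covered, by peaks of 329 to 1713 bp with a median of 927 bp. The widest of the 9 was chr16:112392-113970, of 1579 bp, with its midpoint 39.5 kb below HBZ. HS-40 is named for its distance in kb from HBZ, and this is the peak nearest to that distance. Next to it lay peaks of 700, 1414 and 856 bp at 34.8, 33.3 and 30.9 kb, and peaks of 1092, 701 and 329 bp lay at 54.4, 51.2 and 46.6 kb. The exact borders of the alpha enhancers were not in the tables used, so no peak is assigned to an element.

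The upper end of NPRL3, which holds its promoter since the gene is on the minus strand, lay under a peak of 1092 bp, chr16:138060-139151. Between NPRL3 and HBZ were 4 more peaks, of which chr16:141779-143867, of 2089 bp and 9.82 kb from HBZ, is among the widest of all peaks (2.38% were as wide). The largest gap on this side was 15.9 kb inside NPRL3, from the peak at 30.9 kb to the promoter.

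On the other side of the locus the peaks thinned out. The 60 kb below HBZ held 13 peaks and had 21.4% under peaks, while the 60 kb above HBQ1 held 3 and had 3.65% under peaks. These 3 lay at 2.21, 8.56 and 49.7 kb from HBQ1 and were 588, 790 and 555 bp wide. LUC7L, which encodes a splicing factor (chr16:188990-229449), held 1 of them at its lower end. The gap above that peak, which took in the rest of LUC7L and ran past its upper end, measured 40.5 kb, and 25.6% of all gaps were as long. Peaks were again frequent farther out on both sides, below NPRL3 and beyond LUC7L, with up to 5 peaks per 10 kb in each case. Just outside the 60 kb limit lay a peak of 927 bp at 60.3 kb in NPRL3 on the lower side, and a peak of 877 bp at 79 kb in FAM234A on the upper side.

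The alpha locus lies close to the end of 16p, where peaks are dense in general. The first 1 Mb of chromosome 16 held 167 peaks, 16.7 per 100 kb, against 2.44 per 100 kb on the whole chromosome and 1.74 per 100 kb over chromosomes 1 to 22 and X. The alpha locus held 45.6 per 100 kb. When the genome was laid out in consecutive windows of the length of the locus, 13 or more peaks fell in 15 of 106167 windows. None of the 35 in this first 1 Mb reached 13, with a median of 4 and a highest count of 12. The windows were cut from the first base of each chromosome, so the locus itself was split between them. A window that took in part of the locus held 12. These counts therefore do not set the locus against the rest of its region. Of the other 44 protein-coding genes there, 42 (95.5%) had a peak in or within 10 kb and 22 (50%) had a peak at a gene end. Their median was 5.5 peaks within 10 kb and 21 within 60 kb, against 9 and 25 in the alpha-like genes. A peak near an alpha-like gene is therefore what nearly all genes of the region show. Of the 3 other genes of at most 2 kb there, 0 had 90% coverage (exact 95% interval 0 to 70.8%), too few to compare coverage within the region. How far the region sets the globin counts was not tested.

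**Figure D3:**
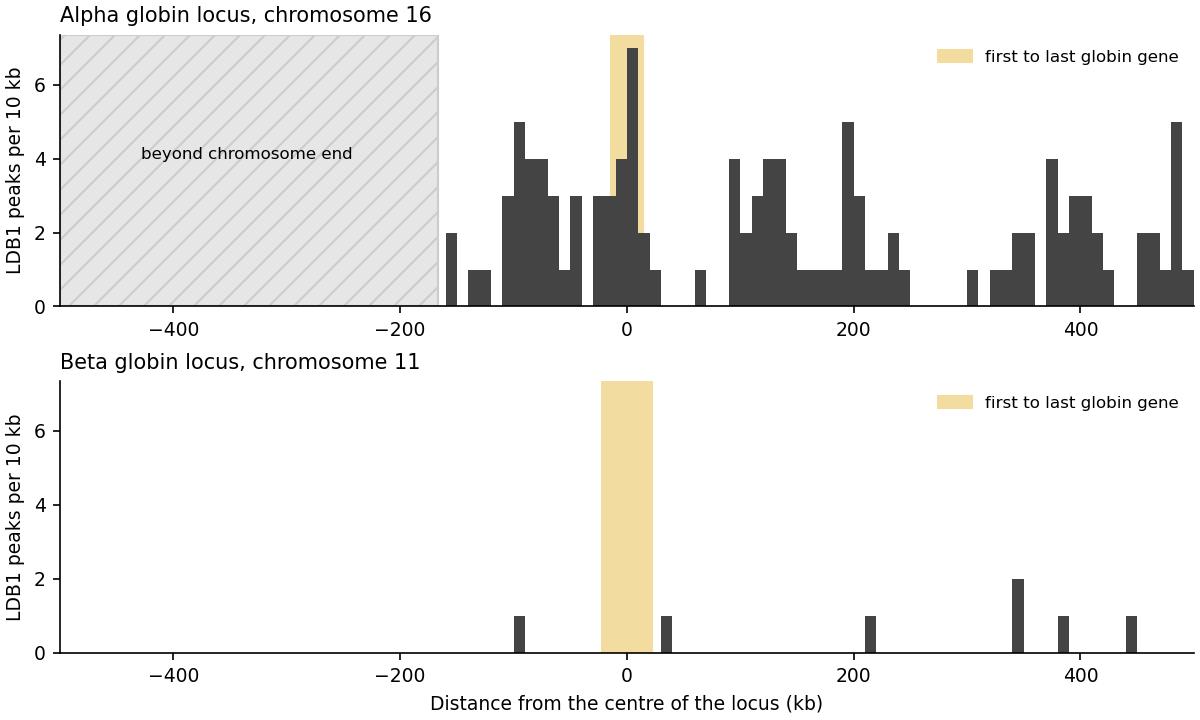
LDB1 peaks per 10 kb by distance from the centre of the alpha globin locus (upper) and the beta globin locus (lower), in kb. The shaded band runs from the first to the last globin gene and the hatched area is beyond the end of chromosome 16. Peaks are frequent on both sides of the alpha locus and highest inside it, and the 1.04 Mb around the beta locus holds 7 peaks in all.

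The beta-like genes lay in a stretch without peaks. From HBB to HBE1 (44.5 kb) there was no peak. The gap that holds them, chr11:5156895-5284523, measured 127.6 kb, and 10.7% of the gaps between neighbouring peaks were as long. Beside the 5 members it held, among others, HBBP1, a beta-like pseudogene, BGLT3, a non-coding gene next to HBG1, and OR51V1, an olfactory receptor gene. These 3 had no peak within 10 kb.

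The single peak of the beta window lay on the LCR side of the genes. It was chr11:5284524-5285094, 571 bp wide, close to the median width of 550 bp (47.2% of peaks were as wide). Its midpoint was 14.9 kb above HBE1, in sequence that no annotated gene covers. The beta-like genes are read on the minus strand, as the RefSeq promoter of HBD shows, so the peak is upstream of HBE1, between it and the olfactory receptor gene OR51B4. The positions of the hypersensitive sites of the LCR were not in the tables used, and the peak was not assigned to a site.

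Distance from this peak rose along the row because the same peak was nearest to all 5 genes. It was 14.9 kb for HBE1, the embryonic epsilon gene, 30 kb for HBG2 and 35 kb for HBG1, the fetal gamma genes, 50.3 kb for HBD, the delta gene, and 57.7 kb for HBB, the adult beta gene. Among protein-coding genes, 26.2% lay as far from their nearest peak midpoint as HBE1 and 12.4% as far as HBB. HBG1 and HBG2 are near-identical copies, and reads that fit both may have been lost, so the absence of peaks at this pair is uncertain. HBE1, HBD and HBB had none either. In the window of 60 kb each beta-like gene thus counted 1 peak, and 88% of protein-coding genes had at least as many.

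The surroundings of the beta locus were sparse as well. Within 500 kb to either side there were 7 peaks in 1.04 Mb, 0.67 per 100 kb, against 3.23 per 100 kb in the first 10 Mb of chromosome 11 and 2 per 100 kb on the whole chromosome. Of the 38 other protein-coding genes there, 30 encode olfactory receptors, and 9 (23.7%) had a peak in or within 10 kb. Over the genome 56 of 387 olfactory receptor genes (14.5%) had such a peak. Windows of 44.5 kb with no peak are common: 67.6% of 68103 windows over the genome and 18 of 24 around the locus, the locus itself included, had none. The nearest peaks outside the window were 68.8 kb from HBB on the lower side (525 bp) and 191.2 kb from HBE1 on the upper side (326 bp, inside OR51B5). The absence of peaks over the beta-like genes is therefore a value shared with most windows of this size and with most neighbouring genes.

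Base composition differed between the 2 globin promoters at hand, 1 per locus, in the same direction as the peaks. The 250 bases before HBM were 69.2% GC with 27 CpG pairs, and those before HBD were 45.2% GC with 2. Among all 34959 promoters, 19% lay under a peak at least in part, which is how promoters are counted in these shares. In 5 nearly equal groups by GC content the share was 0.384% in the lowest group, 4.34% in the second, which holds HBD, 20.7% in the third, 33.5% in the fourth, which holds HBM, and 35% in the highest. Among the neighbours, the promoters of NPRL3 (66.4% GC) and LOC107983982 (66% GC) lay wholly under a peak. Those of LUC7L (54.4% GC) and OR51V1 (30.8% GC) had no peak, nor had that of MPG beyond NPRL3, although it had 76.8% GC. GC content and peaks therefore moved together across promoters, and the part of GC content in the contrast between the globin loci was not tested.

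**Figure D4:**
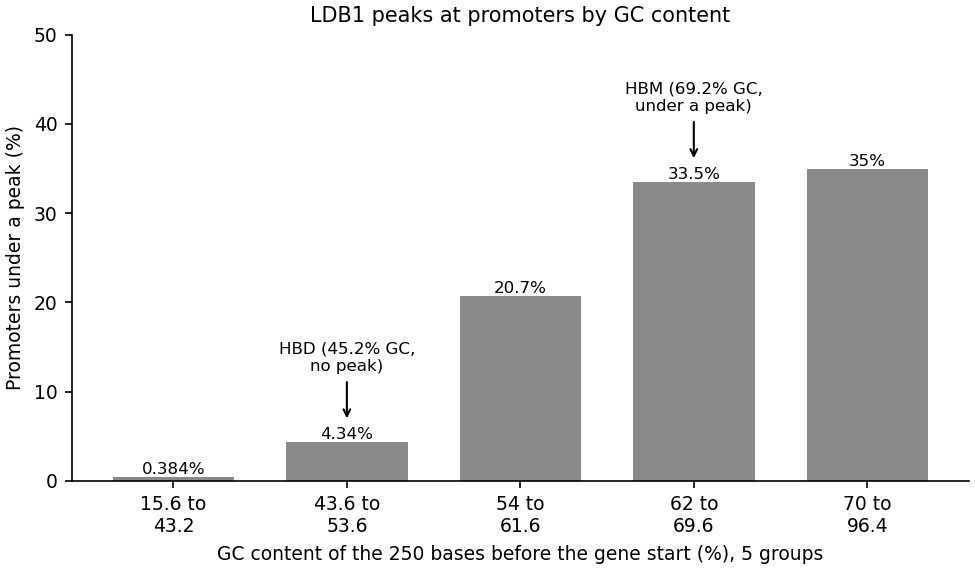
Share of 34959 RefSeq promoters (the 250 bases before the gene start) that lie wholly or partly under an LDB1 peak, in percent, in 5 groups by their GC content in percent. The share goes from 0.384% in the lowest group to 35% in the highest, and arrows mark the groups of HBM and HBD.

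LDB1 peaks lay within 10 kb of 61 of 66 genes in lists chosen as context, against 70.3% of all protein-coding genes. The lists held other globins with a globin chaperone, heme synthesis genes, globin regulators, and genes of the red cell membrane and enzymes. Not all of these genes are particular to red cells. The measure takes in the gene body, so long genes have more room for a peak, and the lists were not matched for gene length. The 4 globins outside the loci and AHSP, which encodes the chaperone of free alpha chains, all had a peak within 10 kb (5 of 5, exact 95% interval 47.8 to 100%), with a median of 1, and 1 of the 5 had a peak at a gene end. NGB, the gene of the neuronal globin, had 3 peaks (widest 1213 bp), and CYGB, that of cytoglobin, had 8 (widest 1117 bp). AHSP had 1 of 841 bp, which lay 8.58 kb outside the gene. Of the genes of heme synthesis, 9 of 9 (66.4 to 100%) had a peak and 7 had a peak at a gene end. The widest were near PPOX (2334 bp), UROS (1703 bp) and CPOX (1597 bp), which encode enzymes of the pathway. ALAS2, the red cell form of its first enzyme, had 3 peaks with the widest at 1247 bp.

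Of 20 regulators of globin genes, all had a peak within 10 kb (83.2 to 100%) and 12 had a peak at a gene end, with a median of 6. Among all protein-coding genes the shares were 70.3% and 37.8%. They included repressors of the fetal gamma genes: BCL11A had 4 peaks (widest 1526 bp) and ZBTB7A had 5 (widest 973 bp). KLF1, the activator of the adult beta gene, had 5 peaks and 83.2% of its gene lay under peaks. GATA1 had 5, TAL1 10, NFE2 7, MYB 2, and LMO2 and LDB1 5 each. The widest were at ZFPM1 (12089 bp), CBFA2T3 (8234 bp) and NFIX (6851 bp). The list holds genes of the LDB1 complex and genes near chromosome ends, and it was chosen with earlier results known.

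Genes of the red cell membrane had a peak in 17 of 20 (62.1 to 96.8%), with a median of 6.5, and 13 had a peak at a gene end. The widest were near DMTN (7327 bp) and AQP1 (6007 bp), which encode dematin and a water channel, and SLC4A1 (4319 bp), the gene of the anion exchanger. The other 3 genes had none. Of the red cell enzymes, 10 of 12 (51.6 to 97.9%) had a peak, the widest near BLVRB (3666 bp), and another near CYB5R3 (1436 bp), and BPGM and CA1 had none. A peak at a gene end was found for 9 of the 12. These counts stand beside 70.3% within 10 kb and 37.8% at a gene end for all protein-coding genes, and no difference between lists was tested. The intervals treat genes as independent draws, although the lists were chosen and neighbouring genes can share peaks.

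**Figure D5:**
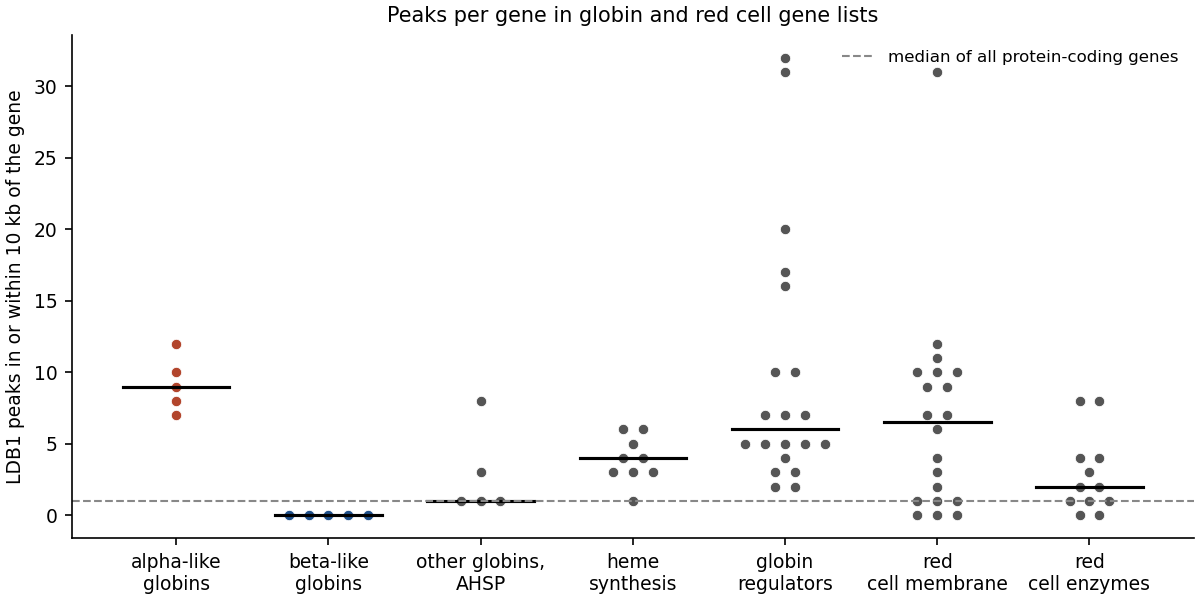
LDB1 peaks in or within 10 kb of each gene, by gene list. Each point is a gene, black bars are list medians, and the dashed line is the median of all protein-coding genes, which is 1. The alpha-like genes have 7 to 12 peaks each, and all beta-like genes are at 0.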

How the data were processed

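The file used was the deposited list of LDB1 peaks from 1 CUT&Tag library of NB4 cells. Per the file headers it gives the chromosome, start, end and length of each peak. In every row the length included both ends, and positions were taken as counted from 1. Per the submitters' processing notes, Bowtie2 2.4.1, MACS2 2.0.10 and the hg38 build were used. The threshold, the handling of duplicate and multiply aligned reads, and any use of the IgG library as control, are not stated in the sources at hand.

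Peaks on chromosomes 1 to 22 and X were placed by midpoint against a RefSeq gene table of GRCh38.p14, the same assembly, from which genes on unplaced or unlocalised contigs were left out. Another 33 and 48 peaks lay on other contigs of chromosomes 11 and 16 and were not used. A gene end is either end of the gene. Counting was checked on simulated peaks and genes. Shares carry exact (Clopper-Pearson) 95% intervals. With 1 library no test was run. Promoter sequences came from RefSeq, of which 34959 were used. Python 3.11.15, NumPy 2.4.6, SciPy 1.17.1 and matplotlib 3.10.9 were used.

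The members, gene lists and motifs were chosen with earlier results of these data known. Named were all members, the genes at peaks of the windows and beside them, the 3 genes with the widest peak and up to 3 without a peak of each list, and a set of globin regulators; a few genes that this rule allowed are not reported here. HBBP1, BGLT3, HBZP1, HBAP1, NPRL3's neighbour MPG, LOC107983982 and ALAS2 were added after their values were seen.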

Additional observations from a re-analysis of the deposited data

How the results depend on the processing

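The count of 5 globin genes with a peak within 10 kb was the same with the widest 50% and 25% of peaks, with any overlap in place of the midpoint and at 5 kb. It was 4 with the gene body only, 6 at 25 kb, where HBE1 is added, and 10 at 60 kb, where the peak beyond HBE1 counts for all beta-like genes. At gene ends it was 4 at 500 bp and 5 under the other planned settings. Without HBG1, HBG2, HBA1 and HBA2, an alternative chosen after seeing the data, 3 of 6 genes had a peak by either measure. The alpha window held 12 of its 29 peaks with the widest 25% and 50 peaks at 100 kb. NPRL3 held 8 of 13 with the widest 25%. The single beta peak was lost with the widest 25% (0), and there were 2 at 100 kb. Of the 66 genes of the context lists, 61 had a peak within 10 kb, and the count stayed between 51 and 62. Among the single lists, 22 of 25 alternatives stayed within 1.5 times, and the 3 others all concerned the other globins, with 3 of 5. No paired analysis was possible because there was 1 library per antibody. Depth was unknown, so the absence of a peak does not show the absence of LDB1. Peaks had no score and use of the IgG library as control was not stated. A listed peak therefore does not by itself show LDB1 binding.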

Other observations

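Over all 34959 RefSeq promoters, GATAA was found in 11.4% of those wholly or partly under an LDB1 peak and in 22.6% of those without a peak. For TATAA the shares were 7.83 and 21.5%. For the E-box CANNTG they were 54.6 and 63.5%, and for the KLF motif CACCC they were 66.8 and 52%. The first 3 motifs were thus less frequent under peaks, although HBM holds each of them under its peak, and the KLF motif was more frequent. The share of promoters under a peak also rose with GC content, and motifs were not compared at equal GC content.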
